A study of Homo sapiens with 3 samples.

Results

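The Hedgehog ligands, receptors and GLI factors examined here were 9 genes chosen by name, SHH, IHH, DHH, PTCH1, SMO, GLI1, GLI2, GLI3 and SUFU. All 9 were found among the 35880 gene symbols of the table. They were measured in HEK293T, an established human embryonic kidney line that carries adenoviral sequence and SV40 large T antigen. The cells were untreated, grown in high-glucose DMEM with 10% serum and harvested at 70% confluence, and poly(A) RNA from 3 libraries labelled as biological replicates was sequenced. The series had 1 group, 1 line and no stimulated or inhibited sample, so levels could be described and set against a fixed level, but no response of the pathway could be measured. Whether those replicates were grown as separate cultures was not stated. Each p-value therefore reflects the spread among 3 libraries only, and that spread may be technical.

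In the Hedgehog pathway a secreted ligand binds the membrane receptor Patched, which otherwise holds the membrane protein Smoothened inactive. Active Smoothened gathers at the primary cilium and frees GLI transcription factors from SUFU and from the processing that turns them into repressors. PTCH1 and GLI1 are themselves transcribed in response to the pathway, which is known for patterning the neural tube and limb and for driving medulloblastoma and basal cell carcinoma.

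The receptor side and the GLI factors were present, and the ligands were near the limit of detection. SMO, SUFU, GLI2, GLI3 and PTCH1 averaged between 9.31 and 35.2 TPM. TPM is the estimated reads of a transcript divided by its effective length and scaled to the same total in every library. The effective length is shorter than the annotated length. GLI1 averaged 3.33 ± 0.369 TPM (SD, n = 3) with all of its annotated transcripts summed, but 0.703 ± 0.165 TPM when only transcripts of at least 1000 bases were. IHH, DHH and SHH averaged 0.107, 0.0968 and 0.0329 TPM, from 14, 12 and 10 reads over the 3 libraries together. Against 1 TPM, 6 of the 9 genes were called above and 3 below by limma's moderated test at an adjusted p under 0.05. Of the 21990 symbols above 0 in at least 1 library, which were those tested, 58.5% were called above and 33.9% below. The shares of the 9 genes are thus close to those of the symbols tested. Further on, shares of all symbols are likewise shares of the symbols tested.

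**Figure D1:**
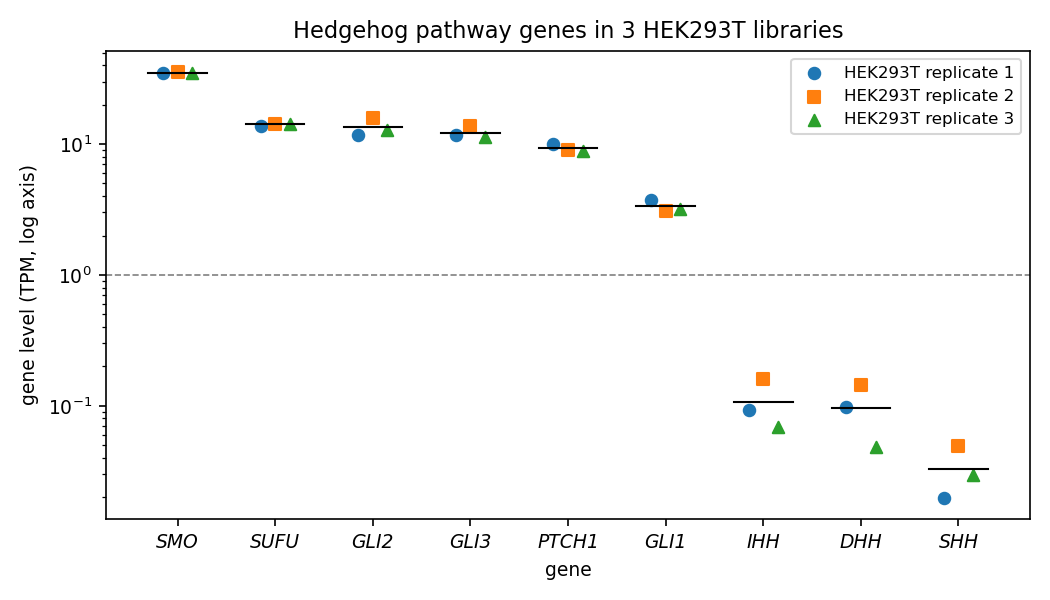
Level of each gene in TPM on a log axis, with 1 marker per HEK293T library and a black bar at the mean of the 3 libraries. SMO lies highest at 35.2 TPM, the 3 ligands lie under 0.2 TPM, and the dashed line marks 1 TPM.

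The libraries were much alike. TPM keeps no depth, and the spacing of low values put the depth at about 33100000, 33700000 and 33500000 reads for replicates 1, 2 and 3. Across 13475 genes of at least 1 TPM, log2 levels of any 2 libraries correlated with Pearson's r between 0.970 and 0.976, a description over genes, which are not independent replicates. Markers were set beside the label. All 6 genes listed as high in HEK293T, among them NEFM and VIM, were called above 1 TPM, against 58.5% of all symbols. They summed to 652 to 668 TPM, with VIM alone averaging 401 TPM. That list was chosen with earlier results of these data known, so it cannot check the label. Markers of other cell types summed to 2.16 to 2.80 TPM for 4 blood genes, 0.200 to 0.414 TPM for 3 endothelial genes and 1.81 to 2.41 TPM for 3 fibroblast genes. CD3E, the defining T cell gene among them, was listed at 0 in every library. LUM, a fibroblast gene, was called above 1 TPM with all transcripts summed and below it in transcripts of at least 1000 bases. In bulk RNA, fewer cells expressing a gene and less RNA per cell cannot be told apart.

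Promoter sequence was set beside the levels because PTCH1 is a known direct target of GLI factors, and because SMO and the ligands stood at opposite ends of the range. Windows reached from 250 bases before to 50 bases after each RefSeq start (GRCh38.p14), and 7 of the 9 genes matched 12 windows in all; GLI1 and GLI3 were not among them. The GLI binding site was searched as GACCACCCA and, on the other strand, TGGGTGGTC. Of 35116 windows, 83 held it, which is 0.236%. Of the 12 windows, 1 held it, the PTCH1 window at chr9:95509217-95509516 on the minus strand, with the site in reverse orientation beginning 172 bases upstream of the RefSeq start and written in capitals here.
PTCH1, window with the GLI site: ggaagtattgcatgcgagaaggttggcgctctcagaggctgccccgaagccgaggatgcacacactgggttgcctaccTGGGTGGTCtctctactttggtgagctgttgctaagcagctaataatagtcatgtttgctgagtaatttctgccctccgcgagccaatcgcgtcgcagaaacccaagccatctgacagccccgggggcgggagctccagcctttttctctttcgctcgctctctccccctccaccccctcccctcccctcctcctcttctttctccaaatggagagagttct
None of the other 11 windows held these letters, nor did any window found for the other pathway genes listed further on. That says only that the letters are not in those windows. Not every listed gene was searched, since the 18 genes known as Hedgehog targets matched 12 windows. Several of the 12 windows of the genes examined here belong to PTCH1, so they do not stand for separate genes. A match is a description of sequence and not a sign of binding.

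The next windows show how CpG dinucleotides, written as CG in capitals, differed between genes of high and low level. A CG-rich start is typical of broadly used promoters. The SMO window lay at chr7:129188383-129188682 on the plus strand, the SHH window at chr7:155812414-155812713 and the IHH window at chr2:219060872-219061171, both on the minus strand.
SMO: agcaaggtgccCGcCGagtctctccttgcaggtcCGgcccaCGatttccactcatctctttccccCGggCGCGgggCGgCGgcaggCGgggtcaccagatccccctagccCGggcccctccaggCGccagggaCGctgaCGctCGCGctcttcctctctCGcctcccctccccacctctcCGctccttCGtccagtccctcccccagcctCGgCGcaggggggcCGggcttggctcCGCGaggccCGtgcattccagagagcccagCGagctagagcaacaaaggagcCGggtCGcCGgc
SHH: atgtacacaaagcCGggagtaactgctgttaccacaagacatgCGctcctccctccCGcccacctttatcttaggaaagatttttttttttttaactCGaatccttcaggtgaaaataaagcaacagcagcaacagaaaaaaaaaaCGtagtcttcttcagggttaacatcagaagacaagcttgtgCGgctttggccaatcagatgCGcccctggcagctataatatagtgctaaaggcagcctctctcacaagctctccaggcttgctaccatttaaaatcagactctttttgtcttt
IHH: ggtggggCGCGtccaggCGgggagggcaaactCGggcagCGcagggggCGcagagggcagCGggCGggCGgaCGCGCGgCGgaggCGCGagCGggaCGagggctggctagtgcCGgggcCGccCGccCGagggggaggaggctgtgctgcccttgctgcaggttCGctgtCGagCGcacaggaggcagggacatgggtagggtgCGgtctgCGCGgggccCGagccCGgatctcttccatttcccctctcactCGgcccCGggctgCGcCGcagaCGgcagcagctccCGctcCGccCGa
The SMO window held 29 CG dinucleotides, the SHH window 7 and the IHH window 37, against a median of 14 over all windows. IHH thus had more CG than SMO and SHH fewer, although both ligands were far lower in level than SMO. The windows of SUFU and DHH held 20 and 12, those of PTCH1 between 13 and 27, and those of GLI2 held 31 and 7. GENCODE 29 placed the SMO, SHH and IHH transcript starts 239, 190 and 454 bases downstream of these RefSeq starts. The printed windows end 50 bases after the RefSeq start, so none of them holds the start of the transcript whose level was measured.

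Among the ligands, IHH, Indian hedgehog, which acts in cartilage and bone growth, lies at chr2:219054420-219060467 on the minus strand. It measured 0.0931, 0.160 and 0.0690 TPM in replicates 1, 2 and 3, from 4, 7 and 3 reads. DHH, Desert hedgehog, which acts in testis and peripheral nerve sheath, lies at chr12:49086656-49094819 on the minus strand. It measured 0.0978, 0.144 and 0.0483 TPM, from 4, 6 and 2 reads. SHH, Sonic hedgehog, the ligand of neural tube and limb, lies at chr7:155799986-155812273 on the minus strand. It measured 0.0199, 0.0495 and 0.0294 TPM, from 2, 5 and 3 reads, with all of them on SHH-201, the only 1 of its 5 transcripts above 0. Replicate 2 was the highest of the 3 libraries for every ligand, and the ranges of IHH and DHH overlapped, as did those of DHH and SHH.

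Each ligand was above 0 in all 3 libraries and called below 1 TPM. On the log2 scale IHH lay at -3.18, DHH at -3.35 and SHH at -4.61 relative to 1 TPM, with limma adjusted p of 0.00180, 0.00216 and 0.00104. Over the reads of all libraries, exact Poisson 95% intervals ran from 0.0587 to 0.180 TPM for IHH, 0.050 to 0.169 TPM for DHH and 0.0158 to 0.0606 TPM for SHH. They cover counting error only, and would be too narrow where reads are PCR copies, which are not independent molecules. The intervals of IHH and DHH overlap almost fully, so their order could not be resolved at this depth. Of the 31-base words of DHH-201, 12.6% also occur in transcripts of other genes, against 0.452% for SHH-201 and 0 for IHH, and an antisense gene overlaps DHH in the annotation; how the authors' counting treated strand is not given in the sources used here.

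SMO, Smoothened, the signal-transducing membrane protein of the pathway, was the highest of the 9 genes. It lies at chr7:129188872-129213545 on the plus strand and measured 34.9, 35.5 and 35.1 TPM, from about 2589, 2629 and 2656 reads. The libraries differed little, with a coefficient of variation of 0.860%, against a median of 4.54% over genes of at least 1 TPM. Its mean was 35.2 ± 0.302 TPM (SD, n = 3), or 5.12 ± 0.02 (SE) above 1 TPM on the log2 scale, with a limma adjusted p of 5.26e-09. SMO-201, a coding transcript of 3738 bases, held 86.7% of the TPM and 97.9% of the reads, and the other 3 transcripts are annotated as retained intron or nonsense-mediated decay.

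PTCH1, Patched, the ligand receptor and a known target of GLI factors, lies at chr9:95442980-95517057 on the minus strand. It measured 9.99, 9.03 and 8.92 TPM, from 1013, 967 and 1012 reads, a mean of 9.31 ± 0.589 TPM (SD, n = 3). Replicate 1 was highest, but by reads replicates 1 and 3 were nearly equal. Its log2 level was 3.20 above 1 TPM (limma adjusted p = 5.64e-07). SMO exceeded PTCH1 in all 3 libraries, by a mean ratio of 3.79 ± 0.254 (SD, n = 3), by 5.06 in transcripts of at least 1000 bases and by 7.78 with reads set over the longest transcript.

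PTCH1 has 27 transcripts in the table, of which 18 were above 0, and they begin at several separate places. PTCH1-201, of 8057 bases, begins at chromosome 9 position 95508661 and held 47.7% ± 3.30 of the reads (SD, n = 3). Transcripts that begin between 95507199 and 95507417, nearly all PTCH1-207 of 6563 bases, held 33.1% ± 2.38. A group between 95506599 and 95506665, mostly the decay-annotated PTCH1-204, held 13.2% ± 0.897, and the farthest upstream group, between 95516658 and 95517057, held 1.82% ± 2.13, with 4.28% in replicate 3 and under 1% in the other libraries. The alternative starts give Patched proteins that differ at the amino terminus, as background. The 2 starts that held most reads lie near different windows: PTCH1-201 begins 605 bases downstream of the RefSeq start of the window with the GLI site, and PTCH1-207 begins 10 bases from the RefSeq start of the window at chr9:95507378-95507677 on the minus strand, shown next with its 18 CG in capitals.
PTCH1, window of the PTCH1-207 start: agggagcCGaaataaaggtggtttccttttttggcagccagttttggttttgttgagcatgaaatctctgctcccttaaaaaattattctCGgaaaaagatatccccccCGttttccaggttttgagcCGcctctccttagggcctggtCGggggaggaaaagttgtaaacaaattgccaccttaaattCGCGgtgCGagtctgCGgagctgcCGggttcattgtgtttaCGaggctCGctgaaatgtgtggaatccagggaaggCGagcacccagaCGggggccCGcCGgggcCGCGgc
These shares are kallisto's division of reads among transcripts that overlap heavily, and 6.24% of the 31-base words of PTCH1-201 and 0.444% of those of PTCH1-207 occur in no other transcript.

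**Figure D2:**
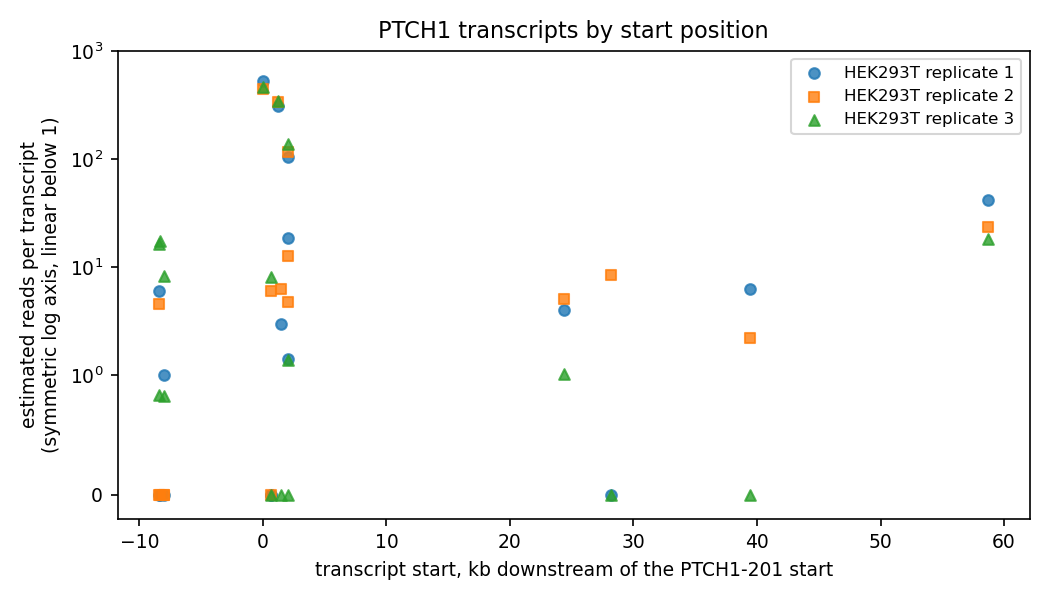
Estimated reads of each PTCH1 transcript in each HEK293T library against the distance of its start from that of PTCH1-201 in kilobases along the direction of transcription, on a symmetric log axis. Most reads fall at 0 kb and just downstream, at the starts that hold 47.7%, 33.1% and 13.2% of the reads, while starts about 8 kb upstream hold 1.82%.

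SUFU, the cytoplasmic inhibitor that holds GLI proteins, was the second highest of the 9 genes by mean. It lies at chr10:102503987-102633535 on the plus strand and measured 13.8, 14.3 and 14.3 TPM, from 1353, 1402 and 1334 reads. Its mean of 14.1 ± 0.265 TPM (SD, n = 3) was 3.81 above 1 TPM on the log2 scale (limma adjusted p = 5.11e-08). SUFU-202, of 5001 bases, held 75.0% of its TPM, SUFU-201, of 1839 bases, held 20%, and no transcript under 1000 bases was above 0. SMO exceeded SUFU in every library, with no overlap of ranges.

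GLI2, the main transcriptional activator among the GLI factors, lies at chr2:120735623-120992653 on the plus strand. It measured 11.8, 15.8 and 12.8 TPM, but from 732, 687 and 673 reads. The library with the highest TPM, replicate 2, was thus not the one with the most reads, and the coefficient of variation was 15.6%. The mean was 13.5 ± 2.10 TPM (SD, n = 3), or 3.73 above 1 TPM on the log2 scale (limma adjusted p = 3.09e-06).

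A single short transcript moved with that spread. GLI2-204, of 315 bases and annotated as coding, measured 5.95, 10.3 and 7.81 TPM, from only 17.8, 31.5 and 23.6 estimated reads. It made up 58.9% ± 7.65 of the GLI2 TPM and 3.51% of the GLI2 reads. GLI2-203, of 6768 bases, measured 3.82, 3.45 and 3.30 TPM and held 79.1% of the reads. Of the 31-base words of GLI2-204, 13.3% occur in no other transcript, against 0 for GLI2-203, so both shares are kallisto's estimates. GLI2-204 begins at position 120736247, while transcripts that begin between 120797291 and 120797345 held 85.4% ± 3.09 of the reads. In transcripts of at least 1000 bases GLI2 averaged 5.22 ± 0.210 TPM, 38.7% of its full sum.

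GLI3, the factor that acts mostly as a repressor when processed, lies at chr7:41960950-42237870 on the minus strand. It measured 11.6, 13.7 and 11.2 TPM, from 1142, 1094 and 1187 reads, with the highest TPM in the library with the fewest reads. The mean was 12.2 ± 1.31 TPM (SD, n = 3), or 3.59 above 1 TPM on the log2 scale (limma adjusted p = 1.09e-06). GLI3-201, of 8208 bases, held 46.7% of the TPM and 93.9% of the reads. The 451-base GLI3-203 held 22.6% of the TPM, and the 583-base GLI3-202, annotated as a retained intron, held 20.4%. In transcripts of at least 1000 bases GLI3 averaged 5.79 ± 0.275 TPM.

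GLI1, the amplifying activator whose transcription is a common readout of the pathway, was the lowest of the GLI factors. It lies at chr12:57460135-57472262 on the plus strand and measured 3.75, 3.06 and 3.18 TPM, from 66.8, 85.8 and 73.8 estimated reads. Replicate 1 had the highest TPM and the fewest reads. With all transcripts summed, its log2 level was 1.72 above 1 TPM (limma adjusted p = 6.20e-05).

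That call rested on short transcripts. GLI1-205, a retained intron of 314 bases, averaged 1.28 ± 0.599 TPM and held 37.9% of the TPM but 5.23% of the reads, and the 784-base GLI1-206 held 21.8% of the TPM. The full coding transcript GLI1-201, of 3613 bases, measured 0.560, 0.516 and 0.637 TPM and held 62.3% ± 11.4 (SD) of the reads. GLI1-207, also longer than 1000 bases, measured 0.0210, 0.375 and 0 TPM in the same order of libraries. Of the words of GLI1-201, counted as for GLI2, 0.0558% occur in no other transcript. That share was 0 for GLI1-206 and GLI1-207, and 36.3% for GLI1-205. The levels of these transcripts, and sums restricted by length, thus rest on kallisto's division of reads. In transcripts of at least 1000 bases GLI1 measured 0.581, 0.891 and 0.637 TPM and was called below 1 TPM, at -0.53 on the log2 scale (limma adjusted p = 0.0225). Over all symbols in that fit, 64.9% were called above and 32.0% below. With all GLI1 reads set over its longest transcript the levels were 0.830, 1.05 and 0.906 TPM, and the call was undecided (limma adjusted p = 0.339), with 56.2% of all symbols above and 38.3% below. ARHGAP9, which overlaps GLI1 on the opposite strand, measured 0.300, 0.124 and 0.150 TPM.

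**Figure D3:**
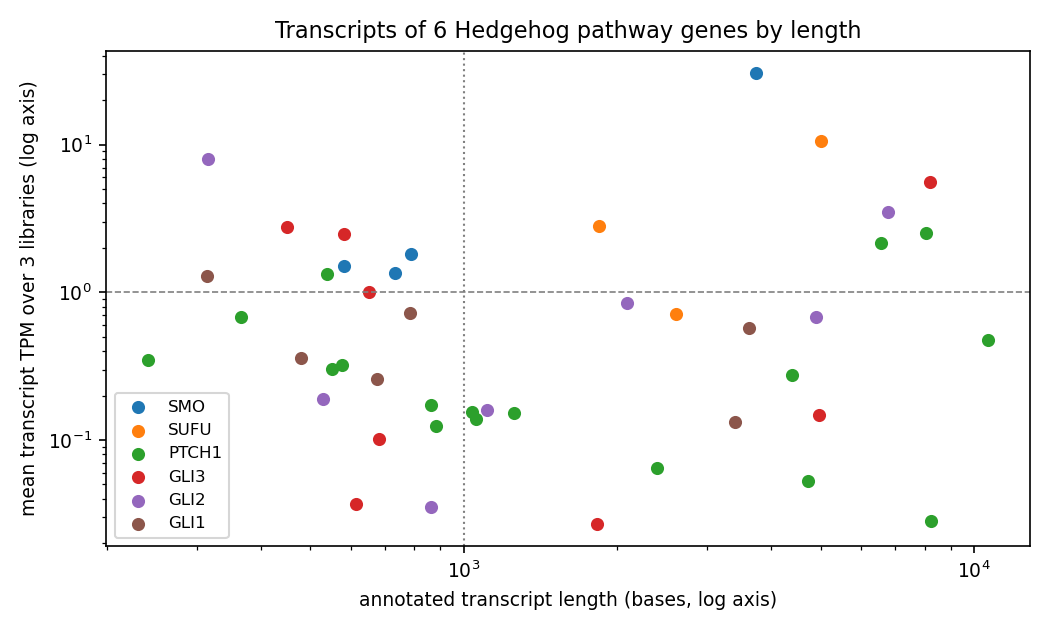
Mean TPM over 3 HEK293T libraries against annotated length for each transcript of the receptors, SUFU and GLI factors with a mean of at least 0.01 TPM, both axes on a log scale. The short GLI2-204 at 315 bases lies at 8.03 TPM, above the full-length GLI2-203 at 3.52 TPM, and the dotted line marks 1000 bases.

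The order of the 9 genes by mean TPM was SMO, SUFU, GLI2, GLI3, PTCH1, GLI1, IHH, DHH and SHH. Of the 8 pairs of neighbours in that order, 4 had ranges that did not overlap: SMO over SUFU, GLI3 over PTCH1, PTCH1 over GLI1, and GLI1 over IHH. SUFU exceeded GLI2 in 2 of 3 libraries, and without replicate 1 GLI2 came before SUFU. GLI2 exceeded GLI3 in 3 of 3 libraries, with a mean ratio of 1.10. In transcripts of at least 1000 bases the ratio was 0.904, and GLI2 was below GLI3 in all 3 libraries. There PTCH1, at 6.03 ± 0.274 TPM, also came before GLI3 and GLI2. With reads set over the longest transcript the order was GLI3, GLI2 and PTCH1, at 5.97, 4.43 and 4.0 TPM. Under all 3 ways of summing, SMO and SUFU came first, GLI1 followed the other GLI factors and the ligands came last. GLI2 exceeded GLI1 by a mean ratio of 4.11, 7.66 and 4.83 in the full sum, the long transcripts and the longest-transcript level.

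**Figure D4:**
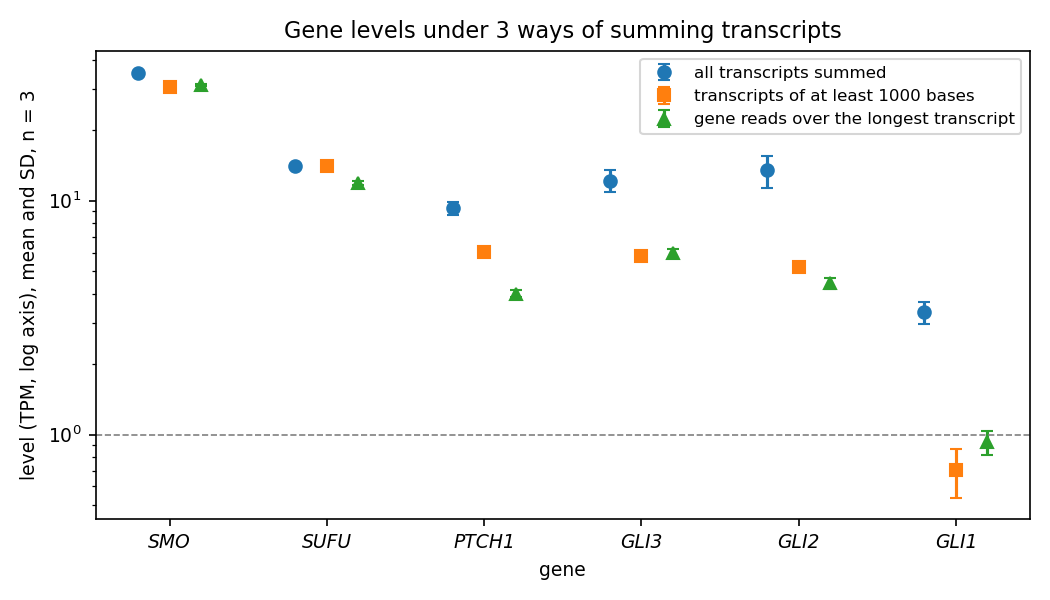
Mean and SD over 3 HEK293T libraries of the level in TPM, on a log axis, for 6 genes with all transcripts summed, with transcripts of at least 1000 bases, and with gene reads over the longest transcript. GLI1 lies at 3.33 TPM in the full sum and at 0.703 and 0.928 TPM in the other levels, on the other side of the dashed line at 1 TPM.

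The rest of the pathway was read from lists, with the median TPM of all 35880 symbols, those at 0 included, at 0.0994. The counts of each list stand beside 58.5% of the 21990 symbols tested called above 1 TPM and 33.9% below. In transcripts of at least 1000 bases these shares were 64.9% and 32.0% of 18083 symbols tested. With no filter, 12738 of the 35880 symbols were called above and 18765 below. All 6 co-receptors and ligand-binding proteins were called above 1 TPM, with a median of 17.3 TPM. Among them GAS1, CDON and BOC, co-receptors that help ligand bind Patched, averaged 30.5 ± 0.789, 20.4 ± 1.00 and 14.2 ± 1.02 TPM (SD, n = 3). HHIP, a ligand trap that is also a target, measured 1.20, 2.30 and 2.67 TPM, a mean of 2.06 ± 0.765 TPM (limma adjusted p = 0.0223). Over transcripts of at least 1000 bases HHIP averaged 1.17 ± 0.0255 TPM (limma adjusted p = 0.0467), so both its level and its spread were larger in the full sum.

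Genes listed under ligand acylation and release lay around 1 TPM, and the listing does not mean that each has been shown to act on the ligand. Of 7, 3 were called above, 2 below and 2 undecided, with a median of 1.18 TPM; in transcripts of at least 1000 bases 2 were above and 4 below. DISP1, which releases lipid-modified ligand, was highest at 3.30 ± 0.485 TPM, and DISP3 was lowest in the full sum at 0.359 ± 0.0639 TPM. SCUBE2, named after its values were seen, was lower in transcripts of at least 1000 bases, at 0.109 TPM against 0.140 TPM for DISP3. Of 15 ciliary and membrane regulators, 14 were called above, with a median of 19.5 TPM. GRK2, a kinase that acts on Smoothened, was highest at 53.4 ± 1.69 TPM. EVC2, which forms a ciliary complex with EVC, was listed at 0 in all 3 libraries, while EVC, named after its values were seen, averaged 10.1 ± 0.539 TPM.

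All 18 kinases and degradation proteins known to act on GLI proteins were called above 1 TPM, against 58.5% of all symbols, with a median of 59.6 TPM. CSNK1E, a casein kinase, was highest at 418 ± 4.31 TPM, or 215 TPM in transcripts of at least 1000 bases, and PRKACB, a catalytic subunit of protein kinase A, was lowest in the full sum at 13.5 ± 1.09 TPM. STK36 and BTRC, named after their values were seen, lay below it in transcripts of at least 1000 bases, at 9.97 and 12.2 TPM against 12.5 TPM for PRKACB. These genes also serve other pathways. Of 18 genes known as Hedgehog targets, 12 were called above, 3 below and 3 undecided, against 58.5% above and 33.9% below among all symbols, and the median was 2.17 TPM. FOXM1, a cell cycle factor, was highest at 91.4 ± 1.14 TPM, and FOXA2, a floor plate factor, was lowest at 0.0127 ± 0.0110 TPM. Among long transcripts 12 targets were above and 5 below, beside 64.9% and 32.0% of all symbols.

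**Figure D5:**
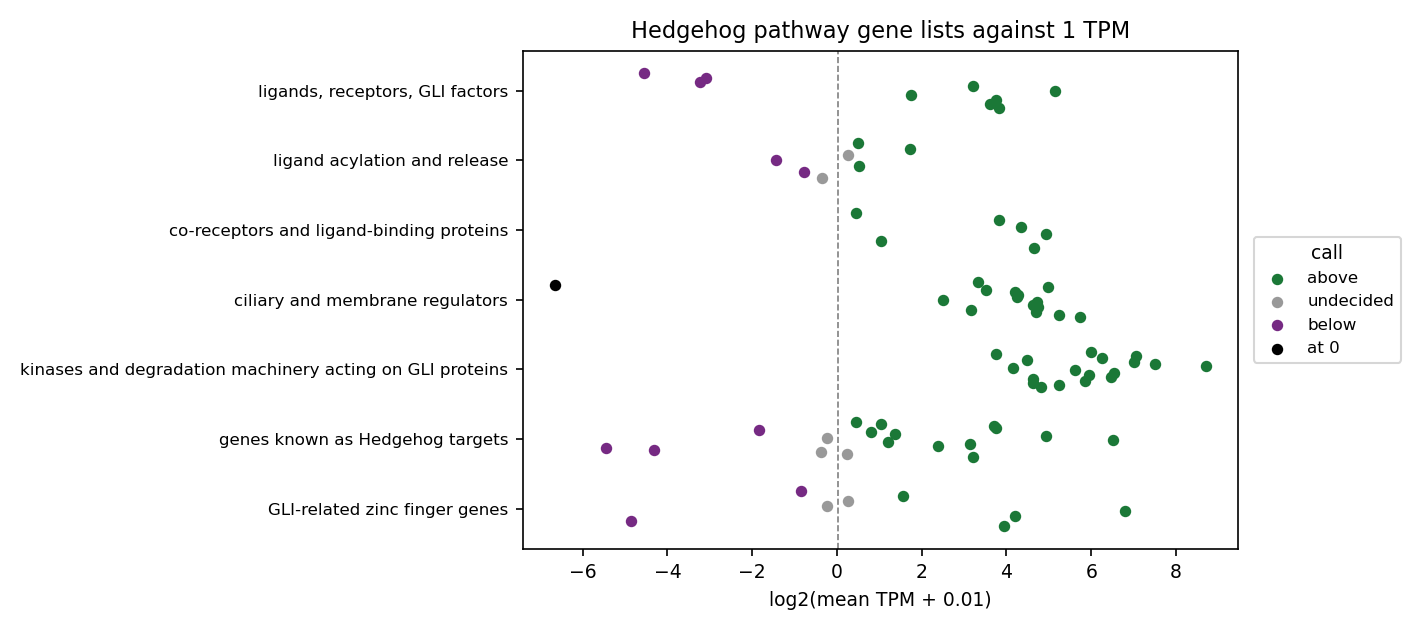
Mean level of each gene on the log2(TPM + 0.01) scale by pathway list in 3 HEK293T libraries, coloured by its call against 1 TPM at the dashed line. All 18 kinases and degradation proteins and all 6 co-receptors lie above the line, and EVC2 at the far left is listed at 0.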

How the data were processed

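Levels were measured in 3 RNA-seq libraries of HEK293T made with oligo-dT capture and a directional kit, per the labels' protocols. The submitters' processing notes name kallisto and the hg38 build; the version, options, strand setting and transcript release are not given in the sources used here. Per the file headers, the deposited table gives TPM per transcript and library, scaled by the authors within each library, and a column of estimated counts that names no library. Those estimated counts, deposited with a total of 33184885, differed from replicate 1, put on the same scale, by at most 1.08e-05 in relative terms, so they served only to check depth.

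TPM was summed per gene symbol over 185299 transcripts. Transcript types and positions came from GENCODE 29, with 90.5% of transcripts matched by identifier, and that release may not be the authors'. Depth was estimated from low values, taken as whole multiples of 1 read once multiplied by effective length. Of the low values tested, 70.7% to 74.9% lay within 0.02 reads of a whole number. For replicate 1 the estimate was 33076250 reads, under the deposited total of 33184885, so its quoted reads are slightly low. Reads per transcript are estimates from that depth, with 1 set of effective lengths for all libraries, and were rounded to whole numbers for edgeR.

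Levels were tested with limma 3.58.1 (R 4.3.3) on log2(TPM + 0.01), two-sided and moderated with an intensity trend, against a level of 1 TPM. P-values were adjusted by Benjamini-Hochberg over the 21990 symbols above 0 in at least 1 library. The log2 scale with its pseudocount understates differences of low genes. edgeR 4.0.16's quasi-likelihood test on estimated reads, other pseudocounts, levels, scalings and filters, and leaving out each library were alternatives. The script was tested on simulated data. All 9 genes, the highest and lowest of each pathway list, 5 co-receptors or targets and the leading transcripts were to be named by rule; some of these genes are not reported here. The genes and lists were chosen with earlier results of these data known.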

Additional observations from a re-analysis of the deposited data

How the results depend on the processing

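Every gene but GLI1 kept its side of 1 TPM, or of 0.5 or 2 TPM where those levels were tested, with an adjusted p of at most 0.0214, under each alternative that tested it. GLI1 stayed above 1 TPM, by 0.79 (protein-coding transcripts only) to 1.82 on the log2 scale, under all but 2 of the alternatives at that level, and by 2.71 and 0.73 above 0.5 and 2 TPM. In those 2 it was at -0.53 in transcripts of at least 1000 bases (adjusted p = 0.0225) and at -0.11 with reads over the longest transcript (adjusted p = 0.339). Both were chosen after seeing the data. Genes above 1 TPM were then 5, not 6. A filter on a mean of at least 0.1 TPM left 1 of 3 ligands called below, since SHH and DHH did not pass it. Symbols called below numbered 7454, but 3493 with that filter, 18765 with no filter, 4224 with protein-coding transcripts only, and 5359 to 5631 leaving out each library. Neighbours without overlap numbered 4, and 5, 7 and 5 without replicates 1, 2 and 3. Ranges over fewer libraries are narrower or equal in all of these settings, so their counts are not on a like footing with 4. Why the count was highest without replicate 2 was not tested. With protein-coding transcripts only, the TPM share of PTCH1-201 became 36.4%, that of SMO-201 100%, of GLI2-204 67.6% and of GLI3-201 58.6%, since other transcripts leave the sum. No paired analysis was possible because the series has 1 group. Depth limits the ligands, whose levels rest on 10 to 14 reads each.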

Other observations

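The GLIS and ZIC zinc finger genes are relatives of the GLI factors. Highest of the 8 listed was ZIC2, a factor of early neural development, which averaged 112 ± 3.25 TPM (SD, n = 3), or 65.9 TPM in transcripts of at least 1000 bases. ZIC5, named after its values were seen, averaged 15.5 ± 0.809 TPM against 13.5 ± 2.10 TPM for GLI2, with overlapping ranges in the full sum; in transcripts of at least 1000 bases GLI2 averaged 5.22 ± 0.210 TPM and ZIC5 was unchanged, with no overlap. ZIC4 was lowest at 0.0243 ± 0.0299 TPM. Of the 8 genes, 4 were called above 1 TPM, 2 below and 2 undecided, with a median of 2.06 TPM, against 58.5% above and 33.9% below over all symbols. In transcripts of at least 1000 bases 4 were above and 4 below.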
